A study of Mus musculus with 20 samples.

Results

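The hippocalcin family of neuronal calcium sensors was described here by 7 genes, Hpca, Hpcal1, Hpcal4, Ncald, Ncs1, Vsnl1 and Tesc, of the 32285 genes counted in single nuclei RNA-sequencing (snRNA-seq) of the mouse hippocampus. Tesc, a calcineurin B homologous protein gene, lies outside this family in the narrow sense. The list was chosen by family membership of the other genes and by an earlier result of these data. In that result Hpca and Tesc had small unadjusted p-values between genotypes under isoflurane in CA1. That contrast is therefore given below as levels only, with no test. All 20 mice were males of 4.5 to 5.5 months, either APP/PS1 mice, labelled fAD here, hemizygous for the APPSwe and PS1ΔE9 transgenes, which the prion protein promoter drives in this line, or wild-type (WT) littermates. Nuclei came from frozen whole hippocampus, with 1 library per mouse. By the labels 6 WT-Awake and 3 fAD-Awake mice were not anesthetized, 3 WT-GA and 4 fAD-GA mice had isoflurane (5% lowered to 1.5%) for 3 h, and 2 WT-Ketamine and 2 fAD-Ketamine mice had ketamine at 150 mg/kg with xylazine at 12 mg/kg for 3 h, so that the ketamine groups are also xylazine groups. The series' design text gives other group numbers than the labels do, with 1 mouse more in WT-GA and in fAD-Awake and 1 fewer in fAD-GA and in WT-Awake, and the labels were followed. The study's figure legend also differs from the labels, with 4 WT-GA, 4 fAD-Awake, 4 WT-Awake and 3 fAD-GA mice.

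Neuronal calcium sensors are small EF-hand proteins that bind calcium at low concentrations. Most carry a myristoyl group that is hidden without calcium and exposed when calcium binds, which moves the protein to membranes, where it meets channels, receptors and trafficking adaptors. Hippocalcin (Hpca) is named for the hippocampus, where pyramidal cells contain much of it, and it is known for a part in the slow afterhyperpolarization and in the removal of glutamate receptors from synapses. Vsnl1, Hpcal1 and Hpcal4 encode visinin-like proteins, Ncald encodes neurocalcin delta, and Ncs1 encodes neuronal calcium sensor-1, which binds a phosphatidylinositol kinase. Tesc encodes tescalcin, a calcineurin B homologous protein.

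The members lie apart in the genome (GRCm38, with the annotation of GENCODE). Hpca spans 10.5 kb on the minus strand at chr4:129111570-129122036 and Hpcal4 spans 11.5 kb on the plus strand at chr4:123183227-123194701. Tesc spans 34.1 kb on the plus strand at chr5:118027743-118061878 and Ncs1 spans 50.2 kb on the plus strand at chr2:31245823-31295989. Vsnl1 (111 kb, minus strand, chr12:11325242-11436613) and Hpcal1 (101 kb, plus strand, chr12:17690856-17791933) share a chromosome. Ncald is the longest at 426 kb on the minus strand at chr15:37366175-37792570. Introns were counted, so a long gene can collect more reads per transcript, and levels are compared below between cells and mice within 1 gene, never between genes. Hpca shares 57 bases with Tmem54 on the opposite strand. Of 5 other counted genes that lie within Ncald, 2 are on its own strand, where reads are uncertain.

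RefSeq promoter windows (GRCm38.p6, 250 bases before to 50 after a start site) matched 6 of the 7 members, and Ncald had none. The windows of 3 genes on which the comparisons below turn are printed 5′ to 3′ on the gene's strand, with the GC box GGGCGG on either strand in capitals. Hpca has 3 listed start sites and the first in the table is shown (chr4:129121698-129121997, minus strand), beside Tesc (chr5:118027493-118027792, plus strand) and Hpcal4 (chr4:123183254-123183553, plus strand).
Hpca: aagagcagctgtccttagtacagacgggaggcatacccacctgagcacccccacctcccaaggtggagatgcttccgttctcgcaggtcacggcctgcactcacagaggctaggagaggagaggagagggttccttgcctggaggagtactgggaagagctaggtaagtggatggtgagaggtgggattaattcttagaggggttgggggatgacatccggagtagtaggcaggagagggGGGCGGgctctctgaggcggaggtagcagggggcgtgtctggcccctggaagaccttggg
Tesc: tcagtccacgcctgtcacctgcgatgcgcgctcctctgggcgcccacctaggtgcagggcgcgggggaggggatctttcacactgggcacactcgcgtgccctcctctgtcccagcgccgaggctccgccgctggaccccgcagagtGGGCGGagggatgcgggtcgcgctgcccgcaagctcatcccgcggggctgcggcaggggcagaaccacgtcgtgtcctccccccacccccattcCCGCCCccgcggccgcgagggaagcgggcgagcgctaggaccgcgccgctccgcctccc
Hpcal4: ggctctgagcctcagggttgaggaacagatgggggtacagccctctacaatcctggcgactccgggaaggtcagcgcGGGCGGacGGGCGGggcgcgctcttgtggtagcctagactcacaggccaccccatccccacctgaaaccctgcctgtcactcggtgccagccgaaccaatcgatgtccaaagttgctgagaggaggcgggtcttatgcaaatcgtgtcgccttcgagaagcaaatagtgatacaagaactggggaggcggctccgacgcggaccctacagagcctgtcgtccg
The GC box occurred 1 time in the Hpca window shown, 2 times in the Tesc window and 2 times in the Hpcal4 window. The windows of the other Hpca start sites held it 4 and 0 times, and 35.7% of all 32851 windows held it. Neither the cAMP response element TGACGTCA, searched on both strands and held by 1.79% of all windows, nor its shorter form TGACG, held by 20.8%, was in the 3 windows shown. These letters describe the windows only.

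Nuclei were sorted into classes by marker genes, and a class is called by its markers, as in CA1-like nuclei. Of 160777 nuclei, 126758 were in a named class, and 10 classes were tested. Per-mouse totals were 9243992 to 25394891 UMIs (unique molecular identifiers, each 1 counted RNA molecule), with a median of 1235 to 3169 UMIs per nucleus. No CA2-like cluster was found. The library is the mouse, and mice 1 to 4, which are 1 mouse of each awake and each GA group, stood apart: mitochondrial genes took 0.939% to 1.78% of their UMIs against 0.0353% to 0.336% in the other mice. Hpca and Tesc moved with them. In the 5 tested neuron classes, Hpca was highest in its group in mice 1 to 4 in 20 of 20 combinations of mouse and class, and Tesc in 16 of 20. The other members were so in 9 (Ncs1), 8 (Hpcal4), 7 (Hpcal1), 6 (Ncald) and 1 (Vsnl1) of 20. The classes share these mice and are not independent, and the share over all genes is not given here. Each count of pairs past the test is therefore also given without these mice, a fit in which the filter kept 54 pairs of member and class in place of 62, and the part of the libraries in any difference was not tested. Barcodes found in more than 1 library numbered 3251 of 157472, at most 35 in a pair of libraries.

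Hpca was highest in pyramidal neurons of the hippocampus. Its level, in UMIs of the gene per 1000000 UMIs of the class in that mouse (CPM), was 83.7 ± 25.1 in CA1-like nuclei and 80.6 ± 25.1 in CA3-like nuclei (mean ± SD, n = 20 mice for both), and these neighbours did not differ beyond their spread. DG-like nuclei (granule cells of the dentate gyrus) followed at 48.6 ± 17.9 CPM, and subicular or cortical excitatory-like nuclei stood at 27.2 ± 16.4 CPM. GABAergic-like nuclei, at 12.7 ± 8.1 CPM, were the lowest of the 10 tested classes. Fibroblast-like nuclei, at 49.2 CPM, had a SD of 43.1 CPM, and 1678 of the 6851 nuclei of that class came from mouse 25.

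Vsnl1 had another order. It was highest in subicular or cortical excitatory-like nuclei at 331 ± 50.1 CPM and in GABAergic-like nuclei at 282 ± 29.2 CPM, and it was lower in CA3-like (194 ± 38.1 CPM) and CA1-like nuclei (190 ± 37.7 CPM), which did not differ beyond their spread. DG-like nuclei held 93.2 ± 16.4 CPM of Vsnl1. Granule cells thus had the lowest Vsnl1 level of the 5 tested neuron classes.

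Ncald separated the pyramidal fields. It was at 337 ± 31.3 CPM in DG-like, 157 ± 18.8 CPM in CA3-like and 21.5 ± 8.2 CPM in CA1-like nuclei, the lowest of the 16 classes for this gene. Its highest level was in oligodendrocyte precursor (OPC)-like nuclei at 559 ± 74.9 CPM, above subicular or cortical excitatory-like nuclei (427 ± 64.8 CPM) in 19 of 20 mice. Oligodendrocyte-like nuclei held 192 ± 38.8 CPM and astrocyte-like nuclei 52.8 ± 20.3 CPM.

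Tesc was alike in the principal cells, at 32.3 ± 14.3 CPM in CA1-like, 31.1 ± 12.0 CPM in DG-like and 29.3 ± 17.6 CPM in CA3-like nuclei, with mossy-like nuclei of the hilus at 40.9 ± 26.1 CPM over 17 mice, and none of these neighbours differed beyond their spread. Subicular or cortical excitatory-like nuclei (11.3 ± 5.1 CPM) and GABAergic-like nuclei (8.1 ± 4.9 CPM) held less. Ncs1 ran in the 5 tested neuron classes from 52.9 ± 7.9 CPM in GABAergic-like to 72.0 ± 9.2 CPM in DG-like nuclei, and was at 15.5 ± 9.56 to 40.9 ± 30.8 CPM in the tested glial classes. Hpcal1 had its highest levels outside neurons. It stood at 60.6 ± 48.8 CPM in endothelial-like nuclei over 18 mice and 39.2 ± 22.1 CPM in microglia-like nuclei, against 2.9 ± 1.7 CPM in CA1-like nuclei. Hpcal4 lay between 7.6 ± 3.8 CPM in GABAergic-like and 22.3 ± 21.3 CPM in fibroblast-like nuclei of the tested classes.

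**Figure D1:**
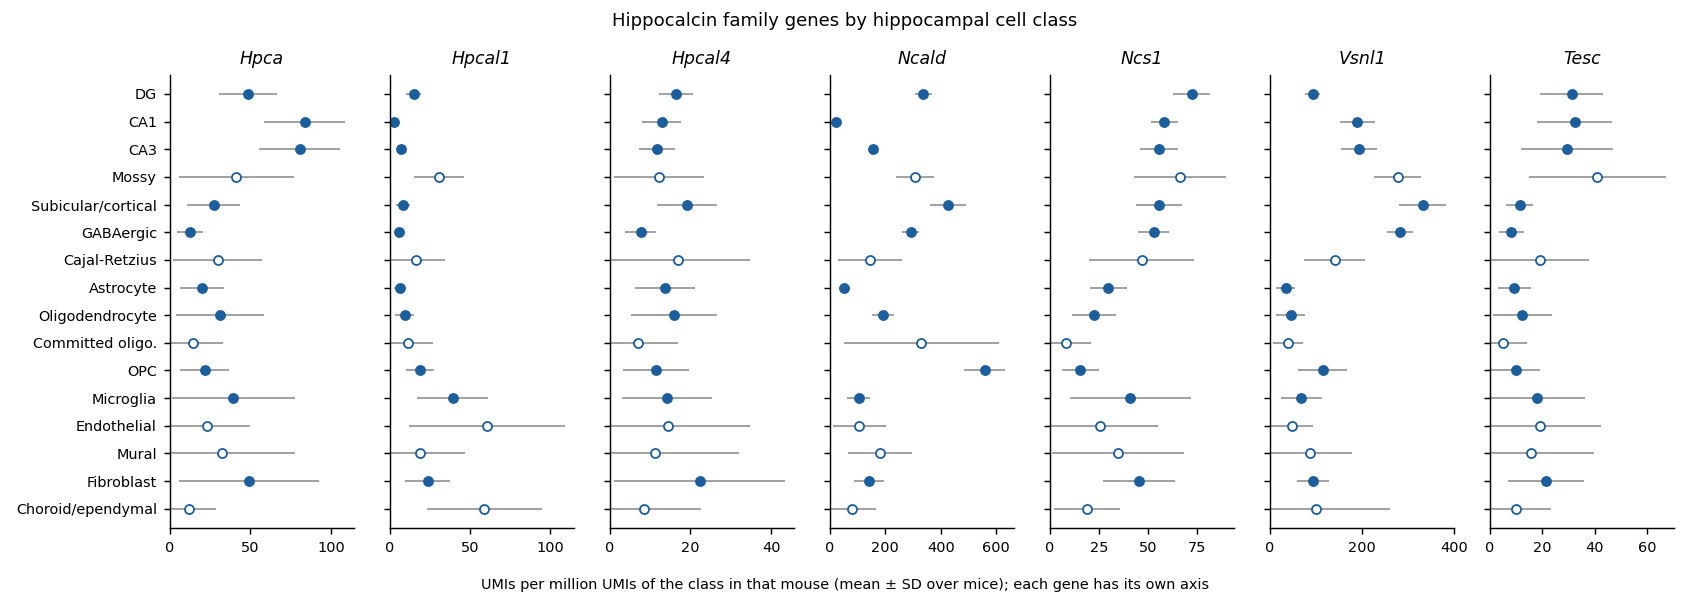
Level of each member (CPM, linear axis of its own for each gene) in 16 cell classes, points being means over mice, bars 1 SD, filled points the 10 tested classes and open points classes with too few nuclei to test. Hpca peaks in CA1 and CA3 at 83.7 and 80.6, Vsnl1 in subicular or cortical excitatory nuclei at 331, and Ncald in OPC nuclei at 559 with its lowest value, 21.5, in CA1.

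RNA set free from broken cells can reach every droplet, so low neuronal counts in glia can be background. A UMI of Hpca was found in 19.9% of CA1-like nuclei (median 2473 UMIs per nucleus) and in 2.41% of astrocyte-like nuclei (median 933 UMIs). A UMI of Ncald was found in 5.87% of CA1-like and 5.61% of astrocyte-like nuclei. The level of free RNA was not measured, and its part in the Ncald values of CA1-like nuclei was not tested.

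Within GABAergic-like nuclei the members differed between subclasses. Vsnl1 was at 591 ± 85.5 CPM in Vip-like nuclei against 225 ± 72.8 to 296 ± 47.8 CPM in the Cck-, Lamp5-, Pvalb- and Sst-like subclasses (mean ± SD over mice with at least 10 nuclei). Ncald was at 89.1 ± 57.9 CPM in Cck-like nuclei against 274 ± 63.7 to 441 ± 83.1 CPM in the others. Ncs1 was at 76.7 ± 24.2 CPM in Pvalb-like nuclei, and at 36.1 ± 12.2 to 53.7 ± 17.2 CPM in the others. Hpca stayed at 8.4 ± 9.9 to 17.9 ± 14.3 CPM in each subclass.

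The genes whose profile over the 16 class means was most like a member's, among 15316 genes, were Slc26a4, Cpne6 and Rin1 for Tesc (Pearson r = 0.95, 0.91 and 0.91) and Gpr22, Rap2b and Adcy9 for Hpca (r = 0.90, 0.89 and 0.89). For Vsnl1 they were Clstn3, L1cam and Chd5 (r = 0.95, 0.93 and 0.93), for Ncs1 Gm10862, Atp6v0a1 and Ndrg4 (r = 0.94, 0.92 and 0.92), and for Ncald 4930447A16Rik, Lrrtm3 and Ctnna3 (r = 0.95, 0.80 and 0.77). Hpcal1 was most like 2310001H17Rik, Becn1 and Polr3gl (r = 0.85, 0.82 and 0.82), and Hpcal4 most like Ctla4, Cbll1 and AI597479, each with an r of 0.77. The class means share the 20 libraries and differ in depth, so these values describe the profiles and carry no test.

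Before the comparisons the labels and states were checked in CA1-like nuclei. Prnp, whose promoter drives the transgenes in this line, was at 38.4 to 183 CPM in the 11 WT mice and 59.7 to 511 CPM in the 9 fAD mice. The genotypes overlapped, 4 of 9 fAD mice lying above the highest WT mouse and 1 below the WT median, so groups are named as labelled. That low fAD mouse (59.7 CPM) was in fAD-GA and the highest WT mouse (183 CPM) in WT-Awake. These are the groups to which the design text gives 1 mouse fewer. The activity-regulated genes Arc and Npas4 fell in both anesthetized states. Under isoflurane their log2 fold changes against awake mice were -2.45 ± 0.30 and -1.50 ± 0.22 (± SE, edgeR adjusted p = 0.000209 and 0.000749), and under ketamine -2.74 ± 0.44 and -3.60 ± 0.42 (adjusted p = 0.00129 and 0.000355).

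The first comparison asked whether isoflurane anesthesia changed the members, with 7 GA mice against 9 awake mice, averaged over genotypes. Members passed the filter on low counts in 62 of 70 pairs of gene and class. Under isoflurane Hpca rose in subicular or cortical excitatory-like nuclei and Tesc fell in CA3-like nuclei. These were the only 2 of 62 pairs past the test (edgeR quasi-likelihood test, Benjamini-Hochberg adjusted p under 0.05), or 3.23%, against 3.56% of all 107582 pairs of gene and class (2.05% higher and 1.5% lower), so the share of members was close to that of all genes. Of all genes tested, 5.15% passed in subicular or cortical excitatory-like nuclei and 2.11% in CA3-like nuclei. In edgeR without mice 1 to 4, 0 of 54 member pairs passed (9 at an unadjusted p under 0.05), against 1.89% of all pairs. With runs of consecutive mouse numbers as blocks 5 of 62 passed, the same 2 (adjusted p = 0.0139 for Hpca and 0.00458 for Tesc) and 3 others given below. The share of all pairs with the blocks is not given here, so this count is not a result about the members.

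Hpca in subicular or cortical excitatory-like nuclei was at 11.8 CPM (lowest), 15.2 CPM (median) and 24.4 CPM (highest) in the 6 WT-Awake mice, and at 20.4, 23.6 and 31.7 CPM in the 3 fAD-Awake mice. It was at 27.9, 54.0 and 80.6 CPM in the WT-GA mice and at 17.4, 21.5, 40.6 and 40.8 CPM in the fAD-GA mice. Thus 4 of 7 GA mice lay above the highest awake mouse and the groups overlapped. Hpca had a log2 fold change of 0.88 ± 0.24 (adjusted p = 0.038). It was 0.76 without mice 1 to 4 (adjusted p = 0.186), and the call was also lost when mouse 2, 3, 4, 10, 11, 13, 14, 17, 18 or 29 was left out alone, with values of 0.69 to 0.98, and when nuclei were gated by their own markers (0.58, adjusted p = 0.0845).

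Tesc in CA3-like nuclei was at 17.5 CPM (lowest), 34.5 CPM (median) and 82.4 CPM (highest) in the WT-Awake mice and at 37.5, 44.8 and 47.8 CPM in the fAD-Awake mice. It was at 23.9, 29.3 and 34.3 CPM in the WT-GA mice and at 10.7, 14.4, 17.7 and 19.5 CPM in the fAD-GA mice. All 7 GA mice lay below the awake median of 37.5 CPM, and 2 lay below the lowest awake mouse. Tesc had a log2 fold change of -0.99 ± 0.24 (adjusted p = 0.0346). Without mice 1 to 4 it was -0.93 (adjusted p = 0.159), and leaving out mouse 2, 3, 4, 10, 13, 14, 15, 16, 17, 18 or 20 alone lost the call, at -1.04 to -0.93, as did the gate by own markers (-0.78, adjusted p = 0.0815).

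Tesc did not go one way in the principal cells. Its fitted difference was -0.66 ± 0.22 in CA1-like nuclei (adjusted p = 0.0906) and 0.39 ± 0.18 in DG-like nuclei (adjusted p = 0.289), neither past the test. With the blocks the CA1 difference was -0.68 and passed (adjusted p = 0.00584). In DG-like nuclei Tesc was at 14.5 to 46.6 CPM in the 9 awake mice and at 26.7 to 53.4 CPM in the 7 GA mice, 6 of which lay above the awake median. Hpca had a fitted difference of 0.62 ± 0.17 in DG-like nuclei (adjusted p = 0.0553), where 5 of 7 GA mice lay above the highest of the 9 awake mice, and of -0.02 ± 0.15 in CA1-like nuclei (adjusted p = 0.968). Ncald, Ncs1 and Vsnl1 had fitted differences of -0.34 to 0.17 on the log2 scale in the 5 neuron classes. With the blocks Hpca passed in DG-like (0.64, adjusted p = 0.0101) and oligodendrocyte-like nuclei (0.79, adjusted p = 0.0266). These contrasts use the same 7 GA mice as the genotype contrast by which Hpca and Tesc were chosen.

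**Figure D2:**
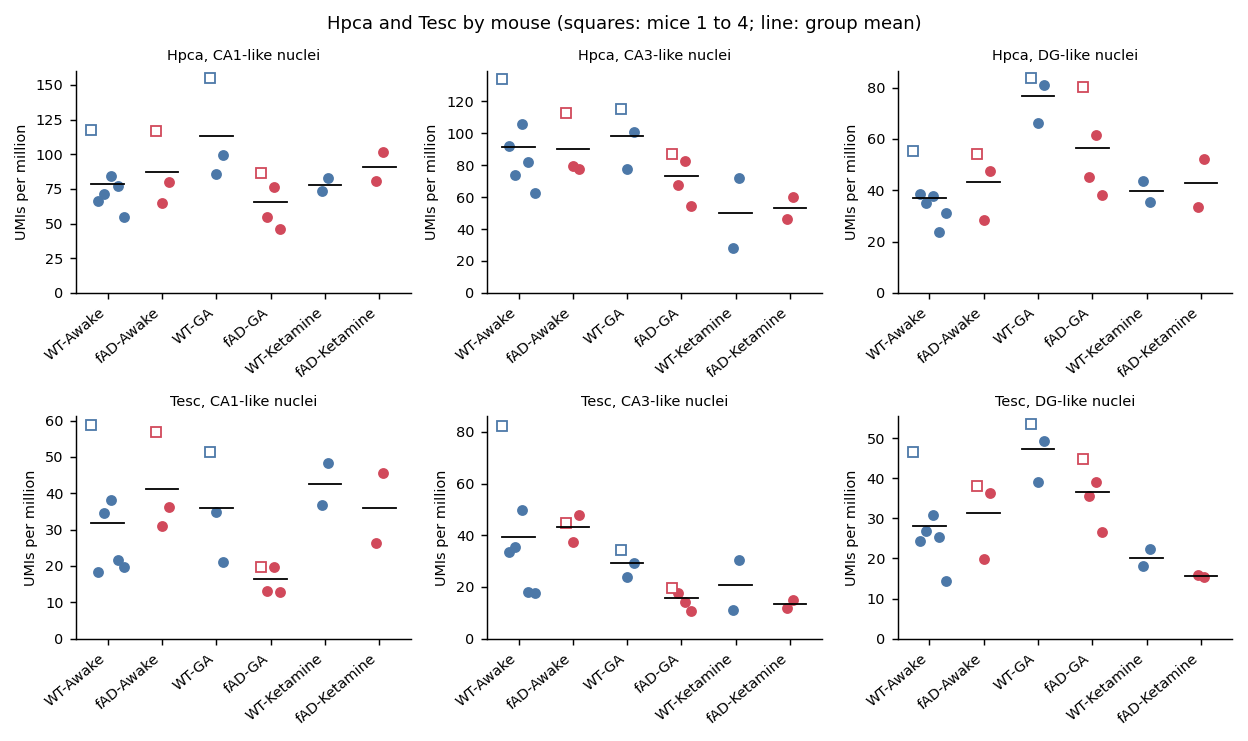
Hpca (top) and Tesc (bottom) in CPM, in CA1-, CA3- and DG-like nuclei, 1 point per mouse in 6 groups (WT blue, fAD red), with squares for mice 1 to 4 and lines at group means. Tesc in CA3 is at 10.7 to 34.3 in the 7 GA mice and at 17.5 to 82.4 in the 9 awake mice, while in DG the 4 ketamine mice, at 15.3 to 22.3, lie below all GA mice.

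The second comparison asked the same of ketamine with xylazine, with 4 ketamine mice against the 9 awake mice. Under ketamine Hpcal4 and Ncald fell in CA1-like nuclei and Tesc fell in DG-like nuclei, and no member rose. These were 3 of 62 pairs, or 4.84%, against 5.7% of all pairs of gene and class and, for pairs that fell, 2.59%. Of all genes tested, 9.32% passed in CA1-like and 12.1% in DG-like nuclei. When mice 1 to 4 were left out, 2 of 54 member pairs passed, against 4.1% of all pairs: Hpcal4 in CA1-like nuclei and Ncald in oligodendrocyte-like nuclei (-0.56, adjusted p = 0.0446). Over the 62 pairs the fitted differences ran from -3.30 to 0.41 with a median of -0.26, and 45 were below 0. The lowest was Tesc in oligodendrocyte-like nuclei (-3.30 ± 1.24, adjusted p = 0.139), where 1.14% of nuclei had a UMI of it. The median over all genes was also below 0 in each tested class, at -0.111 to -0.011. The share of all genes below 0 is not given here. With runs of consecutive mouse numbers as blocks none of the 3 calls held, at -0.20 for Hpcal4, -0.78 for Ncald and 0.29 for Tesc (adjusted p = 0.946, 0.588 and 0.887). CA1 markers summed to 684 to 859 CPM in CA1-like nuclei of the ketamine mice against 994 to 1330 CPM in the awake mice, with 7 of 7 markers found in each group, and the part of this in the CA1 values was not tested.

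Hpcal4, the visinin-like gene on the same chromosome as Hpca, was at 7.77 CPM (lowest), 13.9 CPM (median) and 18.3 CPM (highest) in CA1-like nuclei of the WT-Awake mice and at 12.8, 14.3 and 21.7 CPM in the fAD-Awake mice. It was at 5.91 and 7.51 CPM in the WT-Ketamine mice and at 5.83 and 9.20 CPM in the fAD-Ketamine mice. Of the 4 ketamine mice, 3 lay below the lowest awake mouse. Its log2 fold change was -0.99 ± 0.26 (adjusted p = 0.0219), and without mice 1 to 4 it was -1.02 (adjusted p = 0.0273). These levels rest on 5 to 20 UMIs per ketamine mouse, and leaving out mouse 25, 27 or 28 alone lost the call, at -1.13 to -0.89, as did the gate (-0.52, adjusted p = 0.28).

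Ncald in CA1-like nuclei was at 16.1 CPM (lowest), 24.1 CPM (median) and 35.1 CPM (highest) in the WT-Awake mice and at 19.2, 24.1 and 24.5 CPM in the fAD-Awake mice. It was at 10.8 and 14.2 CPM in the WT-Ketamine mice and at 12.0 and 13.4 CPM in the fAD-Ketamine mice, all below the lowest awake mouse. The log2 fold change was -0.80 ± 0.24 (adjusted p = 0.0409). The direction turned when the nuclei were grouped differently, to 0.46 at a finer clustering and 0.088 when each nucleus was assigned by its own markers, and was -0.17 with doublets kept (adjusted p = 0.152, 0.888 and 0.596). At the finer clustering the CA1-like class also took in a cluster of 4842 nuclei with Gm42705, Gm6260 and Rxfp1 as top genes. A cluster of 4767 nuclei with the same top genes had no name in the reported fit. Without mice 1 to 4 it was -0.72 (adjusted p = 0.0803), and leaving out mouse 1, 2, 10, 13, 14, 18, 25, 26, 27 or 28 alone lost the call, at -0.88 to -0.73.

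Tesc in DG-like nuclei was at 14.5 CPM (lowest), 26.1 CPM (median) and 46.6 CPM (highest) in the WT-Awake mice and at 19.7, 36.4 and 38.1 CPM in the fAD-Awake mice. It was at 18.2 and 22.3 CPM in the WT-Ketamine mice and at 15.3 and 15.9 CPM in the fAD-Ketamine mice. All 4 ketamine mice lay below the awake median of 26.9 CPM, and none lay below the lowest awake mouse. Its log2 fold change was -0.71 ± 0.23 (adjusted p = 0.0499), just inside the threshold. It was -0.57 without mice 1 to 4 (adjusted p = 0.116), and the call was lost in 16 of 20 fits that left out 1 mouse, all but those without mouse 10, 19, 20 or 29, at -0.78 to -0.63. It was also lost with RLE size factors, without the gene filter, with at least 500 genes per nucleus and with the gate, at -0.76 to -0.62 (adjusted p of 0.0506 to 0.133). In CA3-like nuclei Tesc was at 11.2 to 30.5 CPM and Hpca at 28.0 to 72.2 CPM in the ketamine mice, against 17.5 to 82.4 CPM and 62.7 to 134 CPM in awake mice, with fitted differences of -1.16 ± 0.36 (adjusted p = 0.0692) and -0.68 ± 0.21 (adjusted p = 0.0712), neither past the test.

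**Figure D3:**
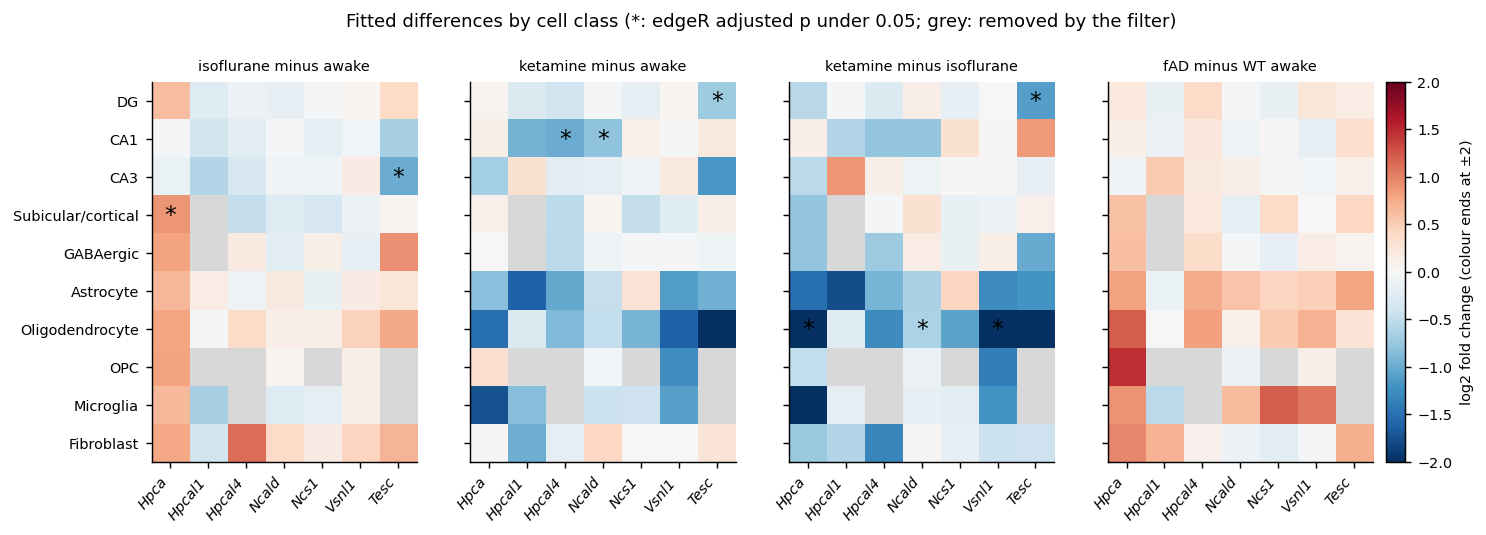
Fitted log2 fold changes of the 7 members in the 10 tested classes for 4 comparisons, red above 0 and blue below, with an asterisk where the edgeR adjusted p was under 0.05 and grey where the filter on low counts removed the gene. The asterisks number 2 for isoflurane, 3 for ketamine, 4 between the anesthetics and 0 between genotypes in awake mice.

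The third comparison set the anesthetics against each other, with 4 ketamine and 7 GA mice, which are the same mice as in the comparisons with the awake state. Tesc in DG-like nuclei was lower under ketamine, and Hpca, Vsnl1 and Ncald were lower in oligodendrocyte-like nuclei. These were 4 of 62 pairs, or 6.45%, against 4.43% of all pairs of gene and class (2.01% lower). Of all genes tested, 4.53% passed in DG-like and 3.45% in oligodendrocyte-like nuclei. In the fit without mice 1 to 4, 3 of 54 member pairs passed, against 3.52% of all pairs, with Tesc higher in CA1-like and lower in DG-like nuclei and Hpca lower in oligodendrocyte-like nuclei. Tesc in DG-like nuclei was at 39.0, 49.3 and 53.4 CPM in the WT-GA mice and at 26.7, 35.5, 39.0 and 44.8 CPM in the fAD-GA mice, each above all 4 ketamine mice. Its log2 fold change was -1.10 ± 0.24 (adjusted p = 0.0187), and -1.05 without mice 1 to 4 (adjusted p = 0.0299). With runs of consecutive mouse numbers as blocks it was -0.04 (adjusted p = 0.997), and the run of the ketamine mice holds 1 other mouse, mouse 29 of WT-Awake. Leaving out mouse 25, 26 or 27 alone lost the call, at -1.13 to -1.03, as did the gate (-0.91, adjusted p = 0.0636). In CA1-like nuclei the fitted difference of Tesc had the other sign, 0.86 ± 0.27, and did not pass (adjusted p = 0.0603). It passed without mice 1 to 4, at 1.04 (adjusted p = 0.021). The GA values of Tesc in CA1-like nuclei are those by which Tesc was chosen, so this pass is a description only. The other contrasts of Hpca and Tesc between the anesthetics use the same 7 GA mice.

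In oligodendrocyte-like nuclei Hpca was at 24.7, 48.5 and 119 CPM in the WT-GA mice and 17.6, 33.6, 36.4 and 57.7 CPM in the fAD-GA mice. It was at 4.73 and 7.69 CPM in the WT-Ketamine mice and at 13.2 and 18.1 CPM in the fAD-Ketamine mice, and the highest ketamine mouse overlapped the lowest GA mouse. A UMI of Hpca was found in 3.09% of oligodendrocyte-like nuclei, and this class held 422633 to 906383 UMIs of all genes per ketamine mouse. The ketamine levels thus rest on few UMIs of Hpca. The log2 fold change was -2.29 ± 0.56 (adjusted p = 0.0338), and -1.66 without mice 1 to 4 (adjusted p = 0.0398). Leaving out mouse 3, 4, 15, 25, 26, 27 or 28 alone lost the call, at -2.44 to -1.85. It was also lost with at least 500 genes per nucleus (-2.14), at the finer clustering (-2.41) and with the gate (-1.68), with adjusted p of 0.0592 to 0.0839.

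Vsnl1 in oligodendrocyte-like nuclei was at 33.4, 56.0 and 139 CPM in the WT-GA mice and at 21.5, 33.6, 60.7 and 84.3 CPM in the fAD-GA mice, each above the 4 ketamine mice at 11.5 to 19.2 CPM. A UMI of Vsnl1 was found in 4.19% of these nuclei, so its ketamine levels too rest on few UMIs. Its log2 fold change was -2.08 ± 0.50 (adjusted p = 0.0312), and -1.45 without mice 1 to 4 (adjusted p = 0.0616). Leaving out mouse 3, 4, 25, 26, 27 or 28 alone lost the call, at -2.24 to -1.66. It was also lost with doublets kept (-1.15), with at least 500 genes per nucleus (-2.21), at the finer clustering (-1.85) and with the gate (-1.08), with adjusted p of 0.0754 to 0.142. Mouse 3 held the highest level of both genes and the highest mitochondrial share of the 20 libraries, 1.78%.

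Ncald in oligodendrocyte-like nuclei was at 187, 199 and 276 CPM in the WT-GA mice and at 189, 190, 205 and 241 CPM in the fAD-GA mice, and the 4 ketamine mice, at 123 to 150 CPM, lay below all 9 awake mice as well. The log2 fold change between the anesthetics was -0.63 ± 0.17 (adjusted p = 0.0431), and -0.53 without mice 1 to 4 (adjusted p = 0.0629). Leaving out mouse 3, 4, 13, 14, 15, 17, 18, 19, 25, 26, 27 or 28 alone lost the call, at -0.72 to -0.50. It was also lost without the gene filter, with doublets kept, with at least 500 genes per nucleus and at the finer clustering, at -0.65 to -0.54 (adjusted p of 0.0546 to 0.153). Levels of Hpca and Vsnl1 in these nuclei, 31.2 ± 27.2 and 44.9 ± 32.1 CPM on average over the 20 mice, are below those of CA1-like nuclei. With the blocks the differences were -1.18 for Hpca, -0.68 for Vsnl1 and -0.94 for Ncald (adjusted p = 0.794, 0.889 and 0.588). The summed level of 35 neuron markers in oligodendrocyte-like nuclei was 4045 to 6309 CPM in the GA mice, with all 35 markers found in each group, and 4818 to 6265 CPM in the ketamine mice, with 32 markers found in WT-Ketamine and 35 in fAD-Ketamine. That sum overlapped between the states, but it was uneven between markers. In the GA and ketamine groups the medians were 145 to 173 CPM for Prox1 and 0 to 3.57 CPM for Fibcd1. Its overlap thus does not show that background RNA was alike. Calb1, a calcium buffer gene, was also lower under ketamine than under isoflurane in these nuclei (-2.32 ± 0.53, adjusted p = 0.0257). Without mice 1 to 4 that call was lost (-1.91, adjusted p = 0.0558). The part of background RNA in these differences was not tested.

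**Figure D4:**
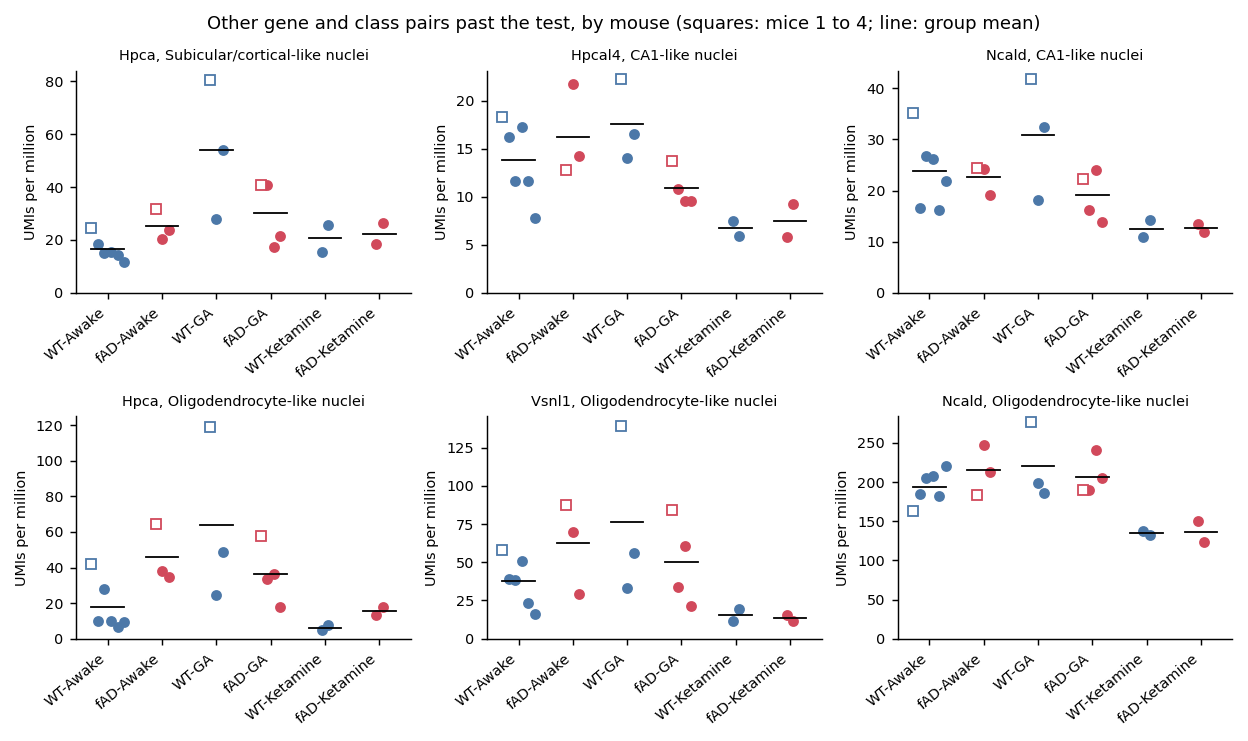
Levels by mouse (CPM, linear axis from 0) for the other pairs past the test, with squares for mice 1 to 4 and lines at group means. Hpcal4 in CA1 is at 5.83 to 9.20 in the 4 ketamine mice against 7.77 to 21.7 in the 9 awake mice, and Hpca and Vsnl1 in oligodendrocyte nuclei reach 119 and 139 in mouse 3 (WT-GA).

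The last comparison was between genotypes. In awake mice 0 of 62 member pairs passed the test, and 3 had an unadjusted p under 0.05. Over all genes 0 of 107582 pairs passed (0%), with 2725, or 2.53%, at an unadjusted p under 0.05, and DESeq2 likewise called 0, with 2196 at an unadjusted p under 0.05. In CA1-like nuclei the fitted differences (fAD minus WT, awake) were 0.12 ± 0.20 for Hpca and 0.34 ± 0.30 for Tesc. Hpca was above 0 in 9 of 10 classes, Tesc in 8 of 8 and Hpcal4 in 8 of 8, with medians of 0.70, 0.31 and 0.30, none past the test. Vsnl1 was above 0 in 7 of 10, Ncs1 in 6 of 9, Ncald in 4 of 10 and Hpcal1 in 2 of 7. The classes share the same 9 awake mice and are not independent. The 3 pairs at an unadjusted p under 0.05 were Hpca in oligodendrocyte-like (1.21 ± 0.52) and OPC-like nuclei (1.48 ± 0.67) and Ncs1 in subicular or cortical excitatory-like nuclei (0.39 ± 0.18). In edgeR without mice 1 to 4, 0 of 54 pairs passed (4 at an unadjusted p under 0.05), and Hpca was above 0 in 6 of 8 classes with a median of 0.32, Tesc in 5 of 5 and Hpcal4 in 7 of 7. In that fit Vsnl1 was above 0 in 7 of 10, Ncs1 in 4 of 8, Ncald in 5 of 10 and Hpcal1 in 3 of 6. Missing the threshold does not show that the genotypes were alike.

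Under isoflurane the levels by which Hpca and Tesc were chosen are given as a description. In CA1-like nuclei Hpca was at 85.6, 99.4 and 155 CPM in the WT-GA mice and at 46.4, 54.6, 76.1 and 86.5 CPM in the fAD-GA mice, a fitted log2 difference of -0.70 ± 0.21. Tesc was at 21.2, 34.8 and 51.5 CPM in the WT-GA mice and at 12.9, 13.0, 19.8 and 19.8 CPM in the fAD-GA mice, a fitted log2 difference of -1.03 ± 0.33. The fAD-GA mice lay below the WT-GA mice for Tesc and overlapped them in 1 mouse, mouse 4, for Hpca. In the same nuclei Hpca was at 54.4 to 117 CPM and Tesc at 18.4 to 58.8 CPM in the WT-Awake mice, so that for Hpca the fAD-GA mean of 65.9 ± 18.6 CPM and the WT-GA mean of 113 ± 36.7 CPM lay on either side of the WT-Awake mean of 78.4 ± 21.5 CPM.

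The same sign was fitted for both genes in each other class that was tested, in the same mice by which they were chosen. The counts of signs that follow are therefore a description and no support for that choice. Hpca was lower in fAD-GA than in WT-GA mice in 10 of 10 classes, by -0.35 to -1.22 on the log2 scale, and Tesc in 8 of 8, by -0.32 to -1.11. The classes share the same 7 mice and are not independent. Of the other members, Hpcal4 was below 0 in 7 of 8 classes, Hpcal1 in 5 of 7, Vsnl1 in 8 of 10, Ncald in 5 of 10 and Ncs1 in 4 of 9. Over the 62 pairs 47 were below 0, with a median of -0.41. The share of all genes below 0 in this contrast is not given here. Without mice 1 to 4, 37 of 54 were below 0, with a median of -0.14: Hpca in 8 of 8 classes, Tesc in 5 of 5, Hpcal4 in 5 of 7, Vsnl1 in 8 of 10, Ncs1 in 6 of 8, Ncald in 3 of 10 and Hpcal1 in 2 of 6, the medians of these last 0.19 and 0.11. Leaving out any 1 mouse gave -0.86 to -0.47 for Hpca and -1.31 to -0.75 for Tesc in CA1-like nuclei. The design text and the study's figure legend count 1 mouse differently in each GA group, and the fAD mouse with Prnp below the WT median was a fAD-GA mouse. A mouse labelled with the other genotype would alter these levels. Glial and fibroblast markers summed to 1631 to 1676 CPM in CA1-like nuclei of the WT-GA mice and to 1693 to 1880 CPM in those of the fAD-GA mice, and the CA1 markers to 846 to 1064 and 899 to 1174 CPM, with 30 of 30 and 7 of 7 markers found in both groups.

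Among 22 other EF-hand sensors and buffers, 7 of 135 pairs of gene and class passed the test under isoflurane, 1 higher and 6 lower (5.19%), and 9 of 135 under ketamine, 1 higher and 8 lower (6.67%), against 3.56% and 5.7% of all pairs. Without mice 1 to 4 these were 5 of 123 (4.07%), 2 higher and 3 lower, and 5 of 123 (4.07%), 5 lower, against 1.89% and 4.1% of all pairs. Kcnip3, a potassium channel-interacting protein, fell under isoflurane in DG-like (-0.57 ± 0.13), CA1-like (-0.46 ± 0.13), CA3-like (-0.67 ± 0.16), subicular or cortical excitatory-like (-0.58 ± 0.14) and OPC-like nuclei (-0.69 ± 0.16), with adjusted p of 0.0175 to 0.0472. Without mice 1 to 4 it passed in CA1-like, subicular or cortical excitatory-like and OPC-like nuclei and not in DG-like (-0.50, adjusted p = 0.283) or CA3-like nuclei (-0.60, adjusted p = 0.281). Kcnip1, of the same family, rose in OPC-like nuclei under isoflurane (0.96 ± 0.19, adjusted p = 0.0141), and also without these mice (1.15, adjusted p = 0.00521). The calcium buffer gene Calb1 fell in DG-like nuclei under both isoflurane (-0.73 ± 0.16, adjusted p = 0.0193) and ketamine (-0.99 ± 0.20, adjusted p = 0.0046), and in CA1-like nuclei under ketamine (-1.05 ± 0.24, adjusted p = 0.00978). Its isoflurane call was lost without mice 1 to 4 (-0.76, adjusted p = 0.102), and these ketamine calls were not. Chp1, a calcineurin B homologous protein gene related to Tesc, fell under ketamine in DG-like (-0.55 ± 0.14), CA1-like (-1.12 ± 0.16) and subicular or cortical excitatory-like nuclei (-0.86 ± 0.22), with adjusted p of 0.000626 to 0.0302, the last lost without mice 1 to 4 (-0.78, adjusted p = 0.0631). Kcnip2 fell in CA3-like nuclei under ketamine (-1.13 ± 0.19, adjusted p = 0.00531).

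Among 16 genes of binding partners and myristoylation, 2 of 136 pairs passed under isoflurane, both lower (1.47%), and 10 of 136 under ketamine, 4 higher and 6 lower (7.35%), against 3.56% and 5.7% of all pairs. Leaving mice 1 to 4 out, these were 0 of 133 in edgeR (16 at an unadjusted p under 0.05), and 5 of 133 (3.76%), 1 higher and 4 lower, against 1.89% and 4.1% of all pairs. Kcnd3, a potassium channel subunit, fell in subicular or cortical excitatory-like nuclei under isoflurane (-0.61 ± 0.18, adjusted p = 0.0465), a call lost without mice 1 to 4 (-0.49, adjusted p = 0.191). Under ketamine Dlg4, the postsynaptic scaffold that hippocalcin is known to meet, fell in DG-like (-0.48 ± 0.11), CA1-like (-0.52 ± 0.13) and CA3-like nuclei (-0.74 ± 0.19), with adjusted p of 0.00853 to 0.0336. Ap2b1, a subunit of the clathrin adaptor AP2, fell in DG-like (-0.39 ± 0.12) and CA1-like nuclei (-0.68 ± 0.16), with adjusted p of 0.0351 and 0.0105. Nmt1, an N-myristoyltransferase, rose in DG-like (0.64 ± 0.18) and CA1-like nuclei (0.75 ± 0.18), with adjusted p of 0.0244 and 0.0161. Nmt2, the other N-myristoyltransferase, fell in GABAergic-like nuclei (-0.57 ± 0.15, adjusted p = 0.0402), and Kcnd3 rose in astrocyte-like nuclei (1.08 ± 0.32, adjusted p = 0.0454). Of these ketamine calls, those of Dlg4 in CA3-like nuclei (-0.69, adjusted p = 0.0701), Nmt1 in DG-like nuclei (0.66, adjusted p = 0.056), Nmt2 (-0.59, adjusted p = 0.078) and Kcnd3 (0.81, adjusted p = 0.097) were lost without mice 1 to 4. For this list too the fits with the blocks are not given here. Between ketamine and isoflurane 4 of 135 pairs of the first list passed, all lower under ketamine (2.96%), and 3 of 136 of the second, 2 higher and 1 lower (2.21%), against 4.43% of all pairs. Leaving mice 1 to 4 out, these were 3 of 123 (2.44%) and 4 of 133 (3.01%), against 3.52% of all pairs. In awake mice 0 pairs of either list passed the test between genotypes.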

How the data were processed

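Nuclei of 20 mice were profiled by snRNA-seq. The values the authors deposited are raw UMI counts for each gene in each nucleus, made with Cell Ranger 5.0.0 on mm10 with introns included, per the file headers and the submitters' processing notes. The study's methods also name CellBender and DoubletFinder, and whether the counts used here precede them is not given in the sources used here. No nucleus had fewer than 200 genes. The labels give no batch, and the kit version differs between labels and methods.

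Doublets were simulated within each mouse, which marked 10844 nuclei (6.74%). Clustering used 2000 variable genes (members and listed genes left out), 30 principal components, Harmony by mouse (written in numpy 2.4.6, and chosen once clusters of single mice had appeared), 20 neighbours and the Leiden method at resolution 1 (leidenalg 0.10.2). Among 44 clusters, 10 with over 40% marked nuclei were dropped, and with the marked nuclei this took out 13984 nuclei. A name needed at least 3 class markers, each in 5% or more of the nuclei, no more markers of another class than its own among the top 10 genes, and at least 2 of its own in the top 50. This last condition was set after the clusters had been looked at, and 20035 nuclei had no name. UMIs were summed per mouse and class, leaving out mice with under 50 nuclei (2 mice in microglia).

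The sums were tested in edgeR 4.0.16 (R 4.3.3) with filterByExpr, TMM scaling and the quasi-likelihood test in 1 fit of 6 groups per class, with Benjamini-Hochberg adjustment over all genes of the class and a threshold of 0.05. The fit was first tested on simulated data. Levels are plain CPM, fold changes come from the fit, and p-values measure the spread between mice. Depth limits genes with a few UMIs per mouse. The members and lists were chosen with earlier results of these data known. The genes named are the members in every class, listed genes past the test (at most 4 per list, class and comparison, of which some are only counted), Prnp, Arc and Npas4 as checks, and for likeness the 3 genes with the highest Pearson r of log2(CPM + 1) over class means, among genes at 10 CPM or more in a class. The result of 1 listed gene is not reported here. The alternatives were DESeq2 1.42.0, RLE size factors, no gene filter, keeping doublets, a minimum of 500 genes, Leiden resolution 2, gating nuclei by their own markers, blocks of consecutive mouse numbers (1 to 4, 10 to 13, 14 to 17, 18 to 20 and 25 to 29), dropping mice 1 to 4, and dropping each mouse in turn.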

Additional observations from a re-analysis of the deposited data

Results flagged for a closer look

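The group means of Hpca in CA1-like nuclei under isoflurane lay on opposite sides of the awake means of their genotype. The 3 WT-GA mice averaged 113 CPM against 78.4 CPM in WT-Awake mice, each above that mean, and the 4 fAD-GA mice averaged 65.9 CPM against 87.3 CPM in fAD-Awake mice, each below it. These are the values by which the gene was chosen, so they are a description, and 2 of the 3 WT-GA mice lay within the WT-Awake range. Hpcal4 means were 17.6 CPM in WT-GA and 13.8 CPM in WT-Awake mice, whose ranges overlapped, and 10.9 CPM in fAD-GA and 16.3 CPM in fAD-Awake mice, whose ranges overlapped too. The differences between genotypes were not tested, and averaged over genotypes neither gene passed the test under isoflurane in these nuclei. In 24 sets, each a gene in a class within WT-Awake (6 mice) or fAD-GA (4 mice), no gap at the end of a group was above Dixon's critical value. The groups of 3 and 2 mice, WT-GA with mouse 3 among them, were not tested for this.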

How the results depend on the processing

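The counts of member pairs past the test depended on the processing. For the comparisons of states, shares of all pairs are given above only for the reported fit and the fit without mice 1 to 4. A change of count under another alternative is thus not a result about the members. Without the gene filter 237963 pairs of all genes were tested in place of 107582. For isoflurane against awake mice (2 pairs) there were 5 with blocks of consecutive mouse numbers, 0 without mice 1 to 4 and 1 when nuclei were gated by their own markers, which was neither of the 2 but Vsnl1 in subicular or cortical excitatory-like nuclei (-0.35, adjusted p = 0.0377). For ketamine against awake mice (3 pairs) there were 7 with DESeq2, 8 without the gene filter, 0 with the blocks and 0 with the gate. For ketamine against isoflurane (4 pairs) there were 8 with DESeq2, 9 without the filter, 0 with the blocks, 1 with at least 500 genes per nucleus, 2 at Leiden resolution 2 and 1 with the gate (Ncald in oligodendrocyte-like nuclei). At Leiden resolution 2 the 3 oligodendrocyte-like calls were lost and Ncald in CA1-like nuclei passed at 0.97 (adjusted p = 0.0111), against -0.77 in the reported fit. The nuclei in these classes changed as well. A cluster of 4842 nuclei joined the CA1-like class. Oligodendrocyte-like nuclei numbered 10565 in place of 15495, and a cluster of 4886 nuclei closest to that class had no name. Leaving out each mouse gave 0 to 3, 0 to 5 and 0 to 9 pairs. The count was 0 for isoflurane without mouse 2, 3, 4, 10, 13, 14, 17 or 18, for ketamine against awake mice without mouse 25 or 27, and for ketamine against isoflurane without mouse 25, 26 or 27. Removing a ketamine mouse leaves 1 in its group, assumed to vary like the other groups. The cause was not tested. Between genotypes in awake mice the members' count stayed at 0 under each alternative run, while over all genes it was 412 of 237963 without the filter and 5 with the blocks.

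Of 261 refits of the 9 pairs past the test, 148 kept direction and call, 110 lost the call and 3 reversed. Ncald in CA1-like nuclei (ketamine against awake) became 0.46 at Leiden resolution 2 and 0.088 with the gate, and Tesc in DG-like nuclei became 0.29 with the blocks. In the blocked fit the ketamine mice share their run only with mouse 29 of WT-Awake. In CA1-like nuclei Hpca (fAD-GA minus WT-GA) was -0.70 to -0.58 over the alternatives and -0.86 to -0.47 leaving out 1 mouse, and Tesc -1.05 to -0.81 and -1.31 to -0.75. No paired analysis was possible by replicate number because no mouse number is shared between groups. The study's methods describe processing in sets with mice of each group, the labels do not give those sets, and the blocked fits above use consecutive numbers as a stand-in for them. Genes at a few UMIs per mouse, such as Hpcal4 in CA1-like nuclei and Hpca and Vsnl1 in oligodendrocyte-like nuclei of the ketamine mice, are limited by depth.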

Other observations

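4930447A16Rik, the gene whose class profile was most like that of Ncald (r = 0.95), lies inside Ncald on the opposite strand and shares 15091 bases with it. The part of this overlap in the likeness was not tested. Outside neurons, the fitted isoflurane difference of Hpca was above 0 in 5 of 5 tested classes, none past the test, and in the neuron classes in 3 of 5. The classes share the same mice and are not independent. The share of all genes above 0 is not given here, and the part of background RNA was not tested.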
